A study of Mus musculus with 8 samples.

Results

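Day 7 of dextran sodium sulfate (DSS) colitis was examined for the genes whose transcript level separated *Efhd2*-deficient from wildtype intestinal epithelial cells (IECs) of the mouse colon. All 128 genes of the day 7 table were taken, of 428 genes listed on day 7, on day 0 or on both. The table holds only genes that had passed a test of the same 4 libraries, an absolute log2 fold change above 1 with an adjusted p-value under 0.05, so a difference between the genotypes was built into every gene. The levels and differences below are therefore descriptions. The function of the listed genes, the direction in which the libraries of a genotype differed from each other, and the levels of the same genes on day 0 were also examined.

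Both genotypes carried *Efhd2* alleles in which exon 2 is flanked by loxP sites. The *Efhd2*-deficient mice (Efhd2 f/f Vil1 cre/+) also carried Cre recombinase under the villin promoter, which is active in the epithelium of the intestine, whereas the wildtype mice of the labels (Efhd2 f/f) had no Cre. The study used mice of 8 to 10 weeks and of both sexes. On day 7, DSS had been given in the drinking water for 6 days and then replaced by water, while the day 0 mice had received none. The series holds 8 samples, 2 libraries in each of 4 groups. On day 7 the *Efhd2*-deficient libraries are numbered 65 and 71 and the wildtype libraries 67 and 68, and nothing states which mouse, how many mice or which sex each stands for, so the spread between the libraries may be technical in part. IECs were shaken from the opened colon with EDTA and passed through a strainer without a sort. None of the 8 general epithelial markers (*Epcam*, *Vil1*, *Cdh1*, *Cldn7* and 4 keratin genes) was among the listed genes, so the labelled cell type could not be checked against them.

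EFHD2 is a calcium-binding protein of the EF-hand family that binds actin filaments. DSS damages the colonic epithelium and lets bacteria reach the mucosa. Surviving epithelial cells then secrete antimicrobial proteins such as the C-type lectins of the Reg3 family, together with chemokines that draw neutrophils and monocytes from the blood, and these leukocytes can enter and cross the epithelium. RNA of an epithelial fraction from an inflamed colon can therefore hold transcripts of epithelial cells and of leukocytes.

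*Efhd2* itself was absent from the day 7 genes, so it did not pass the thresholds for a difference between the genotypes on that day. Its day 7 level is not known here, and the deletion was not checked in these libraries. This limits the contrast of genotypes on day 7. *Efhd2* lies on chromosome 4 of GRCm38 (141858142 to 141874920, minus strand). On day 0 it was at 556 and 713 normalized counts in the *Efhd2*-deficient libraries 51 and 53 and at 2663 and 2686 in the wildtype libraries 50 and 52. The unit is the read count of a gene after the authors' scaling between libraries, and each day was scaled on its own.

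Sequences at the start of 4 listed genes are shown because the genes stand for different roles described below: *Reg3b* and *Reg3g* for antimicrobial lectins of the epithelium, *S100a8* for neutrophil proteins and *Saa3* for acute-phase proteins. The windows run from 250 bases before the annotated start to 50 bases after it (RefSeq, GRCm38.p6), and each is given 5′ to 3′ on the strand of its gene. Capitals mark matches on either strand to 5 motifs: the TATA box as TATAAA, the STAT motif as TTCNNNGAA, the AP-1 motif as TGANTCA, the C/EBP motif as TTGCNNAA and the NF-kappaB motif as 3 G, 5 bases of any kind and 2 C. None of the matches shown overlap.
*Reg3b*, chr6:78370635-78370934, plus strand: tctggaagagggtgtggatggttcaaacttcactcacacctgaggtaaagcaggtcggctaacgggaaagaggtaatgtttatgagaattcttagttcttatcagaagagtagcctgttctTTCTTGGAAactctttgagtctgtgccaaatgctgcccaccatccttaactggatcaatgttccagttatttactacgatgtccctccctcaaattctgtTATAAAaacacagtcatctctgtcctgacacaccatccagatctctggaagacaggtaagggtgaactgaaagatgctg
*Reg3g*, chr6:78468825-78469124, minus strand: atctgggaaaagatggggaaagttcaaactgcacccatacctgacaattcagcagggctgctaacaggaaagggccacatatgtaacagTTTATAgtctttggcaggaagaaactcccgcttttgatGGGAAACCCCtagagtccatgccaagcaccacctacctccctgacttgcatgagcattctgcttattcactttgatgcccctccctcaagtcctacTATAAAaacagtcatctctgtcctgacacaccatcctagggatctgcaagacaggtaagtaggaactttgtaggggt
*S100a8*, chr3:90668821-90669120, plus strand: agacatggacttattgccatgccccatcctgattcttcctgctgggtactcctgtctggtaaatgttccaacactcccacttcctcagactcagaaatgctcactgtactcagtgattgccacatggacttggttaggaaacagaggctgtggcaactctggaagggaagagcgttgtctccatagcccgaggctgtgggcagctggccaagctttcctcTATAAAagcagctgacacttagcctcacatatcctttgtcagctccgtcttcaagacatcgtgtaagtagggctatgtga
*Saa3*, chr7:46715627-46715926, minus strand: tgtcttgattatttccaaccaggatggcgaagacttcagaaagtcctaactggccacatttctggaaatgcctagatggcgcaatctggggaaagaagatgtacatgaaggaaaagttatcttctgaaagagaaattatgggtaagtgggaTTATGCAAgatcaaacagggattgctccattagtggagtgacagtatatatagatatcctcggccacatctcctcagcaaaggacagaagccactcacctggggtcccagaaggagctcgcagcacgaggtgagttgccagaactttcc

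Counted from 1 at the 5′ end of each window, the TATAAA match lay at positions 222 to 227 in *Reg3b*, 224 to 229 in *Reg3g* (with another match at 90 to 95, on the opposite strand) and 221 to 226 in *S100a8*. The STAT match of *Reg3b* lay at 122 to 130, the NF-kappaB match of *Reg3g* at 128 to 137 and the C/EBP match of *Saa3* at 152 to 159. Of the 128 genes, 91 matched a RefSeq window by symbol. TATAAA was found in 36.3% of these 91 genes and in 15.7% of all 27025 genes with a window. The C/EBP letters were found in 26.4% against 12.2%, and the STAT letters in 15.4% against 9.55%. The shares lay closer together for the AP-1 letters (8.79% against 8.97%) and the NF-kappaB letters (56.0% against 53.5%). These matches describe letters in a window and were not tested.

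Of the 128 genes, 117 were higher and 11 lower in *Efhd2*-deficient than in wildtype IECs. For 116 genes both *Efhd2*-deficient libraries were above both wildtype libraries, for 11 both were below, and for 1 gene, *BC018473*, the genotypes overlapped. Here and below, log2 differences are *Efhd2*-deficient minus wildtype on the scale of log2(normalized count + 1), with the standard error of limma where given. Over the 121 genes above 0 in both genotypes the median log2 difference was 2.48. The higher genes among them ranged from 1.5 to 6.0 with a median of 2.56 (111 genes), and the lower genes from -3.67 to -1.81 with a median of -2.43 (10 genes). The remaining 7 genes were listed at 0 in both libraries of a genotype, and no fold is given for them.

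Fitted again with limma and adjusted over the 128 genes (called: adjusted p under 0.05 and absolute log2 difference above 1), 99 genes were called higher and 10 lower, which is 77.3% and 7.81% of the genes tested. As every gene tested was already chosen on this contrast, these shares show how the genes hold under another model, and they are the background for every count of called genes below. The calls were fragile, since with no shared variance limma called 3 genes higher and 0 lower. With any of the 4 libraries left out, 1 genotype holds 1 library and the fit has little left to estimate a spread from. Calls of those fits are therefore not given, only log2 differences. Of 71 genes recomputed in this way, 70 kept their sign with every library left out. An exact permutation test of a single gene in 2 against 2 libraries cannot give a p below 0.333.

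**Figure D1:**
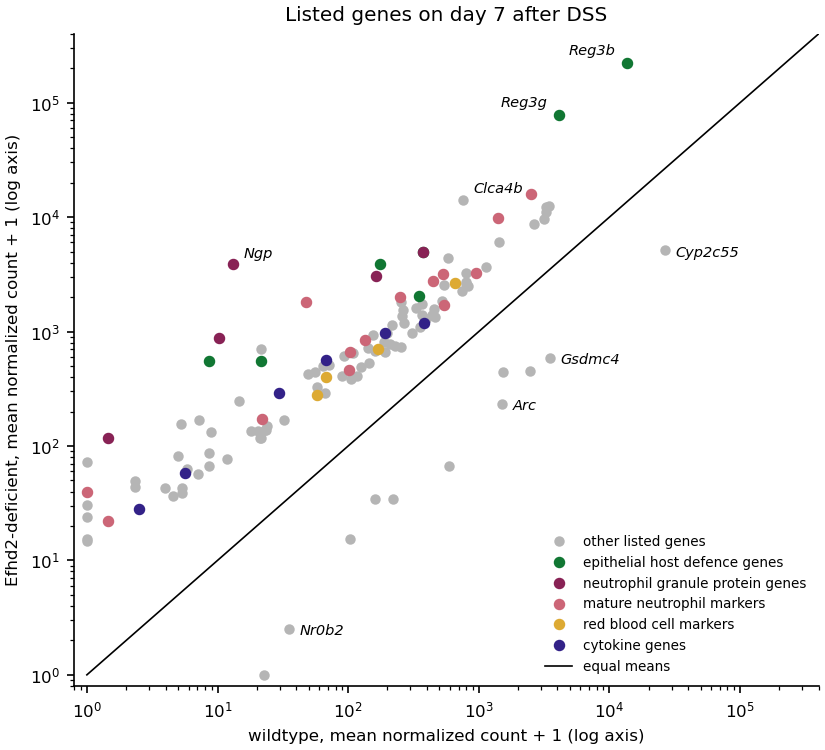
Mean normalized count + 1 of each of the 128 listed genes in the 2 wildtype libraries (horizontal, log axis) and in the 2 Efhd2-deficient libraries (vertical, log axis), coloured by gene list, with Lcn2 drawn among the granule protein genes although it is on 2 lists plotted. The 117 higher genes lie above the line of equal means and the 11 lower genes below it, with Reg3b and Reg3g at the upper right.

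The scale of the libraries bears on all differences. Over the listed genes, the normalized counts summed to 411504 and 614168 in libraries 65 and 71, and to 71972 and 121940 in libraries 67 and 68. *Reg3b* and *Reg3g* alone held 55.8% and 60.4% of the sum in the *Efhd2*-deficient libraries and 25.4% and 14.1% in the wildtype libraries. When the 4 libraries were given equal sums across the 128 genes, the median log2 difference moved by -2.41, and with equal medians it moved by -2.12. As most listed genes are higher, such a scaling takes out the part of the difference they share. It lowers the genes by a similar amount, less for genes of low level. Whether a gene remained higher thus mainly restates the size of its difference, and it is not a separate check. Of the 117 higher genes, 72 remained higher than wildtype with equal sums and 83 with equal medians, and all 11 lower genes remained lower with both. Directions below are those on the authors' scale, and the number of genes that kept their direction on the other scales is given with the lists.

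Per kilobase of gene length, *Reg3b* and *Reg3g* had the highest mean levels of the listed genes in *Efhd2*-deficient IECs. Of 19 epithelial host defence genes, 7 were listed, all higher and all called, with a median log2 difference of 4.06. All 7 were also higher with equal sums and with equal medians. Without library 71 the median of the list was 3.25.

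*Reg3b*, whose product binds the surface of bacteria, was at 170461 and 274783 normalized counts in *Efhd2*-deficient libraries 65 and 71, and at 13676 and 13549 in wildtype libraries 67 and 68 (log2 difference 3.99, standard error 0.76, adjusted p = 0.00355, limma). *Reg3g*, a lectin that acts on Gram-positive bacteria, was at 59257 and 96445 against 4633 and 3612 (4.21, standard error 0.77). Both genes were higher in library 71 than in library 65, by 1.61 and 1.63 times, and the groups lay far apart. Per kilobase of the gene length in the table, the mean level of *Reg3b* was 194940.0 normalized counts in *Efhd2*-deficient IECs and that of *Reg3g* was 36826.

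*Reg3d* and *Reg3a*, relatives in the same cluster, were low in wildtype libraries and uneven in *Efhd2*-deficient ones. *Reg3d* was at 78.4 and 1031 normalized counts in libraries 65 and 71 against 9.56 and 5.60 in libraries 67 and 68 (log2 difference 5.10, standard error 1.10, and 3.25 without library 71). *Reg3a* was at 102 and 999 against 11.1 and 29.8 (4.06, standard error 1.06, and 2.42 without library 71). For these 2 genes most of the mean came from library 71, which was 13.2 and 9.82 times library 65. The 4 listed Reg3 genes lie on chromosome 6 of GRCm38 in the order *Reg3b* (78370657 to 78373466), *Reg3d* (78375874 to 78378865), *Reg3a* (78380709 to 78383827) and *Reg3g* (78466269 to 78468872). Their sequences are related, so reads shared between them could have been divided or lost in the authors' counting.

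The other 3 host defence genes encode an enzyme, a protease inhibitor and a siderophore-binding protein. *Nos2*, the inducible nitric oxide synthase, was at 6100.2 and 1724 normalized counts in libraries 65 and 71 and at 80.1 and 271 in libraries 67 and 68 (log2 difference 4.45, standard error 0.92, adjusted p = 0.00478, limma). *Slpi*, a secreted inhibitor of leukocyte proteases, was at 2709.8 and 1404 against 241 and 451 (2.56, standard error 0.80). *Nos2* and *Slpi* were thus higher in library 65 than in library 71, the reverse of the Reg3 genes. *Lcn2*, which sequesters bacterial siderophores, was at 2356 and 7498 against 241 and 501 (3.59, standard error 0.86). *Lcn2* is made both by the epithelium and by neutrophils, and is also on the lists of acute-phase and neutrophil granule proteins. The neutrophil markers given below were higher in the same libraries, and their part in the host defence genes was not tested.

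Acute-phase proteins are secreted in inflammation, by the liver and in part by epithelia. Of 15 acute-phase genes, 4 were listed, all higher and all called (median log2 difference 2.75), of which 3 remained higher with equal sums and 4 with equal medians. *Saa3*, a serum amyloid A protein, was at 4499 and 4242 normalized counts in libraries 65 and 71 and at 311 and 858 in libraries 67 and 68 (log2 difference 3.08, standard error 0.81). *Hp*, which binds free haemoglobin, was at 2282 and 2838 against 389 and 695 (2.29, but -0.13 with equal sums). *Lrg1*, a leucine-rich glycoprotein, was at 902 and 2167 against 229 and 294 (2.43). *Saa3* and *Hp* thus differed little between the *Efhd2*-deficient libraries, whereas *Lrg1* was 2.40 times higher in library 71.

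Cytokines carry signals between epithelium and leukocytes. Of 19 cytokine genes, 6 were listed, all higher, and 5 were called (median log2 difference 3.15). Of the 6, 5 remained higher with equal sums and with equal medians, *Osm* being the exception. All 6 were higher in library 65 than in library 71.

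*Il1a*, an alarmin that is released from damaged cells, was at 1241 and 695 normalized counts in libraries 65 and 71 and at 88.7 and 292 in libraries 67 and 68 (log2 difference 2.52, standard error 0.85, and 1.66 without library 67). *Csf3*, the growth factor of neutrophils, was at 319 and 259.8 against 14.5 and 43.0 (3.47, standard error 0.82). *Inhba*, a subunit of activin A, was at 858 and 271 against 44.8 and 87.4 (2.93, standard error 0.85). *B230303A05Rik*, annotated as a transcribed pseudogene, which overlaps *Inhba* on the opposite strand, was also listed, with 66.1 and 30.8 against 2.66 and 0.0308. The sources used here do not state whether reads were counted by strand, so reads of the 2 genes may not be told apart.

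*Il17a* and *Il17f*, neighbouring genes of the interleukin 17 family that induce antimicrobial proteins and neutrophil chemokines in epithelia, were the lowest of the listed cytokines. *Il17a* was at 77.3 and 37.0 normalized counts in libraries 65 and 71 against 1.61 and 7.65 in libraries 67 and 68 (log2 difference 3.52, standard error 0.86). *Il17f* was at 39.6 and 14.4 against 0.820 and 2.19 (3.38, standard error 0.82). None of 15 T and NK cell markers was listed. *Osm*, oncostatin M, was at 1401 and 969 against 251 and 503 (1.71, standard error 0.79, adjusted p = 0.0573, limma) and was not called. Its log2 difference was -0.71 with equal sums and -0.42 with equal medians.

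Of 20 chemokine genes, 3 were listed, all higher and all called (median log2 difference 2.16), of which 1 remained higher with equal sums and 2 with equal medians. *Cxcl2*, a ligand of the neutrophil receptor CXCR2, was at 14086 and 10183 normalized counts in libraries 65 and 71 and at 1917 and 4665 in libraries 67 and 68 (log2 difference 2.0, but -0.42 with equal sums and -0.13 with equal medians). *Cxcl3*, a ligand of the same receptor, was at 1576 and 1899 against 148 and 584 (2.55, and 1.57 without library 67). *Ccl3*, which draws monocytes and other leukocytes, was at 1815 and 452 against 143 and 285 (2.16, but 1.16 without library 65 and -0.26 with equal sums). The *Efhd2*-deficient libraries thus lay close together for both CXCR2 ligands and differed 4.02 times for *Ccl3*.

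Neutrophil transcripts formed the longest list. Of 30 mature neutrophil markers, 14 were listed, all higher, and 13 were called (median log2 difference 2.61 over the 13 genes above 0 in both genotypes). With equal sums 11 of the 14 remained higher, and with equal medians 12. *Csf3r*, *Cxcr2*, *Ly6g*, *Cd177* and *Il1b* of the same list were not listed. Summed over the 14 genes, the normalized counts were 24750 and 60195 in libraries 65 and 71, and 5121 and 8953 in libraries 67 and 68. In bulk RNA more cells of a type and more RNA per cell cannot be told apart.

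*S100a8* and *S100a9*, the subunits of calprotectin, which withholds metal ions from microbes, are neighbours on chromosome 3. *S100a8* was at 4516 and 15016 normalized counts in libraries 65 and 71 and at 1038 and 1752 in libraries 67 and 68 (log2 difference 2.61, standard error 0.85, adjusted p = 0.0209, limma). *S100a9* was at 10154 and 21631 against 2125 and 2904 (2.58, standard error 0.79). Both were higher in library 71, by 3.32 and 2.13 times.

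*Retnlg*, a resistin-like protein of neutrophils, was at 1586 and 4714 normalized counts against 239.9 and 813 (log2 difference 2.63, and 1.75 without library 67), and *Ifitm6* at 482 and 3107 against 33.6 and 59.7 (4.74). The stefin gene *Stfa2l1* was at 102 and 241 against 14.6 and 27.6 (2.90), and its relative *Stfa2* at 12.2 and 65.7 while it was listed at 0 in both wildtype libraries. *Asprv1*, an aspartic protease, was at 397 and 1275 against 97.5 and 172 (2.45, and 1.61 without library 71). In all of these library 71 was above library 65. *Trem1*, a receptor that amplifies myeloid responses, was at 1369 and 2046 against 372 and 714 (1.70, adjusted p = 0.0579, limma) and was not called, with -0.72 under equal sums and -0.43 under equal medians.

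Proteins of the neutrophil granules are transcribed mainly in precursors of the bone marrow, and their transcripts are low in mature neutrophils. Of 12 such genes, 5 were listed, all higher and called, and all 5 remained higher with equal sums and with equal medians. The other genes of the list, *Elane*, *Mpo*, *Prtn3*, *Ctsg*, *Fcnb*, *Ms4a3* and *Cebpe*, were not listed. Which cells the transcripts came from was not tested. The median log2 difference of the 5 listed genes was 4.63, but it ranged from 2.80 without library 71 to 7.37 without library 65. The sums over the 5 genes were 3635 and 22140 normalized counts in libraries 65 and 71, and 326 and 786 in libraries 67 and 68. In libraries 65, 67 and 68 these sums were almost wholly *Lcn2* and *Chil3*, which other cells also make. In library 65, for example, *Lcn2* was at 2356 and *Chil3* at 1082. The sums are therefore no measure of neutrophil transcripts alone.

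*Ngp*, neutrophilic granule protein, was at 90.6 and 7712 normalized counts in libraries 65 and 71 against 12.1 and 12.2 in libraries 67 and 68 (log2 difference 6.0, standard error 1.55). Without library 71 its log2 difference was 2.80, and without library 65 it was 9.20. *Ltf*, lactoferrin, was at 102 and 1651 against 4.17 and 14.3 (5.53, standard error 1.18, and 3.53 without library 71). *Camp*, the precursor of the antimicrobial peptide cathelicidin, was at 4.11 and 227 against 0.877 and 0.0114, so that library 65 lay close to the wildtype libraries (4.63, but 1.89 without library 71 and 7.37 without library 65). *Chil3*, a chitinase-like protein that monocytes and macrophages also make, was at 1082 and 5053 against 67.97 and 259 (4.13, standard error 0.97). Library 71 thus exceeded library 65 in every listed gene of this group, from 3.18 times for *Lcn2* to 85.1 times for *Ngp*. *Abca13*, a transporter gene on none of the lists that is named here after its values were seen, showed the same imbalance, with 26.49 and 306 against 2.46 and 9.86 (3.90, and 2.16 without library 71).

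**Figure D2:**
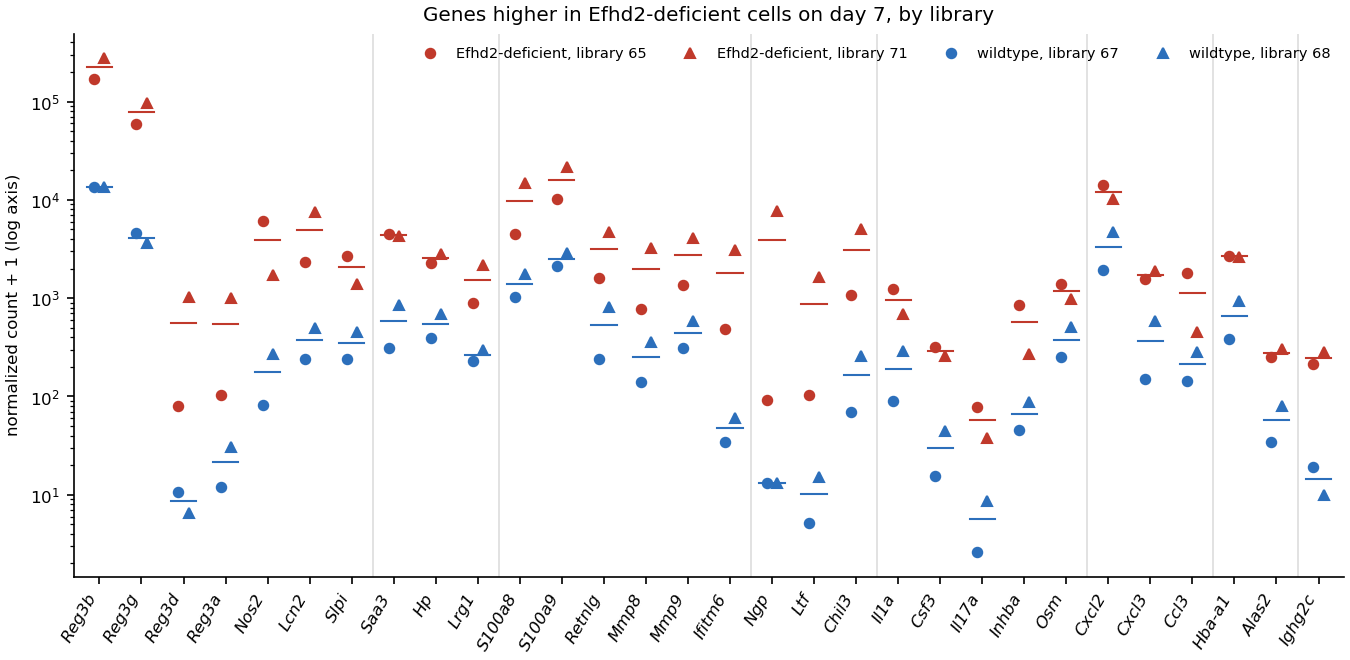
Normalized count + 1 (log axis) of 30 genes that were higher in Efhd2-deficient IECs, in each of the 4 libraries (points) with the genotype mean (line), ordered from host defence, acute-phase, mature neutrophil and granule protein genes to cytokine, chemokine, red blood cell and immunoglobulin genes. Ngp, Ltf, Reg3d and Reg3a are far higher in library 71 than in library 65, while the 5 cytokine genes shown are higher in library 65.

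Receptors by which myeloid cells sense microbes and immune complexes were listed for 8 of 27 genes. All 8 were higher and 7 were called (median log2 difference 2.01), yet 2 of them remained higher with equal sums and 3 with equal medians. *Fpr1* and *Fpr2*, neighbouring receptors for formylated peptides of bacteria, were at 413 and 909 and at 379 and 537 normalized counts in libraries 65 and 71, and at 77.6 and 126 and at 67.2 and 134 in libraries 67 and 68. The log2 difference of *Fpr1* was 2.62. *Fcgr3*, an Fc receptor for IgG, was at 754 and 604 against 138 and 179 (2.09, but -0.32 with equal sums and -0.035 with equal medians). *Fcer1g*, the signalling chain shared by several Fc receptors, was at 958 and 596 against 203 and 214 (1.85, but -0.56 and -0.28). *Clec4e*, a lectin that senses mycobacterial and fungal glycolipids, was at 3206 and 3269 against 604 and 1309.7, and *Mrgpra2b*, a receptor of the Mrgpr family, at 127 and 147 against 26.8 and 17.8 (2.59). The median log2 difference of library 71 against library 65 was 0.17 over these genes, with *Fpr1* higher in library 71 and *Fcer1g* in library 65.

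Of 24 monocyte and macrophage markers, 4 were listed, all higher and all called. With equal sums 2 of them remained higher, and with equal medians 3. *Cd14*, the co-receptor for lipopolysaccharide, was at 11964 and 13046 normalized counts in libraries 65 and 71 against 2458 and 4394 in libraries 67 and 68. *Fn1*, fibronectin, was at 1187 and 1997 against 185 and 469.7 (log2 difference 2.38, but -0.037 with equal sums). *Marco*, a scavenger receptor of macrophages, was at 32.5 and 26.7 and was listed at 0 in both wildtype libraries. *Spp1*, osteopontin, was at 755 in library 65 and at 97.6 in library 71, close to the 72.9 of wildtype library 68 and above the 23.97 of library 67 (2.67, standard error 1.03, but 1.2 without library 65 and 4.14 without library 71). Summed over the 4 genes, the level was 13938 and 15168 in *Efhd2*-deficient libraries and 2667 and 4936 in wildtype libraries. Of the defining macrophage genes *Adgre1*, *Csf1r*, *Cd68* and *C1qa*, none was listed. *Chil3*, *Cd14* and *Spp1* are also made outside the cells whose lists they are on, and the part of each source was not tested.

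Of 22 genes for matrix proteins and proteases, 7 were listed, all higher, and 6 were called (median log2 difference 2.47). With equal sums 4 remained higher, and with equal medians 5. *Mmp8* and *Mmp9*, collagenase and gelatinase stored in neutrophil granules, were at 776 and 3216 and at 1346 and 4138 normalized counts in libraries 65 and 71, and at 139 and 361 and at 312 and 579 in libraries 67 and 68 (2.81 and 2.47). Without library 71 the log2 difference of *Mmp8* was 1.79. *Timp1*, an inhibitor of such proteases, was at 194 and 71.9 against 14.6 and 24.3 (2.59), and overlaps *Syn1* on the opposite strand. *Ecm1*, an extracellular matrix protein, was at 522 and 805 against 129 and 249. *Adam8*, a membrane protease of leukocytes, was at 1765 and 3487 against 556 and 1037 and was not called (adjusted p = 0.0597, limma). The neutrophil proteases were thus higher in library 71, and *Timp1* and *Spp1* in library 65.

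Markers of red blood cells were higher as well. Of 7 markers, 4 were listed, all higher and called (median log2 difference 2.28). With equal sums 1 of the 4 remained higher, and with equal medians all 4. *Hba-a1*, an alpha globin gene, was at 2714 and 2643 normalized counts in libraries 65 and 71 against 387 and 935 in libraries 67 and 68 (2.15, but -0.27 with equal sums). Its near-identical neighbour *Hba-a2* was at 426 and 380.0 against 36.1 and 96.2, and reads of the pair cannot be assigned with certainty. *Hbb-bs*, a beta globin gene, was at 746 and 669 against 105 and 233, and *Alas2*, the first enzyme of haem synthesis in erythroid cells, at 253 and 299.9 against 33.5 and 79.6 (2.39, but -0.0082 with equal sums). Summed over the 4 genes, the level was 4139 and 3992 in *Efhd2*-deficient libraries and 562 and 1344 in wildtype libraries, so the *Efhd2*-deficient libraries were nearly equal in red blood cell transcripts, unlike in the granule protein transcripts.

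All 7 listed immunoglobulin genes, taken by their annotated type and not from a gene list, were higher and called. All 7 remained higher with equal sums and with equal medians. *Ighg2c*, the constant region of the IgG2c heavy chain, was at 214 and 279 normalized counts in libraries 65 and 71 and at 18.2 and 8.96 in libraries 67 and 68 (log2 difference 4.15, standard error 0.78). The other 6 encode variable segments, and of these *Ighv1-34* was listed at 0 in both wildtype libraries. Summed over the 7 genes, the level was 480.2 and 867 against 64.7 and 64.3. None of 13 B and plasma cell markers, which include *Cd79a*, *Jchain*, *Mzb1*, *Igkc*, *Igha* and *Ighm*, was listed. These markers missed the thresholds, and their levels are not known here. Reads of variable segments can match several related genes.

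Among stromal and endothelial markers 1 of 12 was listed, *Vim*, which leukocytes also express, at 1825 and 2666 normalized counts against 483 and 992, and it was not called. Its log2 difference of 1.67 became -0.75 with equal sums and -0.46 with equal medians. No marker of goblet cells (8 genes), enteroendocrine cells (10), tuft cells (5), stem and proliferating cells (6), mast cells (7) or regenerating epithelium (11) was listed. The same held for 10 heat-shock genes, 13 interferon response genes and 21 genes of TNF receptor signalling and cell death, *Tnfrsf1a*, *Casp8*, *Ripk3* and *Cfl1* among them. In all, 12 of the 28 lists, with 127 genes, had no listed gene. A gene outside the table is one that missed the thresholds, and its level was not analysed here. The lists do not hold every gene of their theme. *Bcl2l15* (Bcl2-like 15), on none of them and named after its values were seen, was at 44.8 and 79.1 normalized counts in libraries 65 and 71. In libraries 67 and 68 it was at 5.19 and 4.45 (log2 difference 3.38, standard error 0.77). The paper reports higher expression of apoptotic signalling genes in *Efhd2*-deficient IECs after DSS. It drew them from a Gene Ontology set, which is not the list used here. Its evidence for apoptosis also includes TUNEL staining and cleaved caspases.

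The 3 listed colonocyte markers did not share a direction, and with equal sums and equal medians 1 was higher and 2 were lower. *Clca4b*, a gene of the CLCA family of surface epithelium, was at 15509.6 and 12918 normalized counts in libraries 65 and 71 and at 458 and 1055 in libraries 67 and 68 (log2 difference 4.35, standard error 0.79). *Mal*, a membrane protein of apical transport, was at 1739 and 1384 against 259.8 and 645 (1.92, but 1.27 without library 67, -0.50 with equal sums and -0.21 with equal medians). *Cyp2c55*, a cytochrome P450 of the colon, was lower, with 4362 and 5891 against 12143 and 41314 (-2.14, standard error 0.84, adjusted p = 0.0376, limma, and -1.26 without library 68). The remaining 8 colonocyte markers, *Car1*, *Slc26a3* and *Aqp8* among them, were not listed.

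Enzymes of inflammatory mediators were listed in small numbers. Of 10 eicosanoid synthesis genes, 2 were listed, both higher, called, and higher on the other scales too: *Alox5ap*, which serves leukotriene synthesis in leukocytes, was at 457 and 1395 normalized counts in libraries 65 and 71 against 80.1 and 227 in libraries 67 and 68 (log2 difference 2.56), and *Ptges*, the inducible prostaglandin E synthase, was at 219.7 and 118 against 19.7 and 43.1 (2.42). Of 13 genes for oxidases, nitric oxide and itaconate, *Nos2* and *Hmox1* were listed. *Hmox1*, which degrades haem, was at 1143 and 789.8 against 117 and 277 (2.39, but -0.025 with equal sums), so that 1 of the 2 remained higher with equal sums and both with equal medians.

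On none of the lists were 67 of the 128 genes. Those named in the rest of this paragraph were chosen after their values were seen. *Prok2*, a secreted peptide of neutrophils, was at 153 and 158 normalized counts in libraries 65 and 71 and at 5.21 and 3.36 in libraries 67 and 68 (log2 difference 4.91, standard error 0.76). *Steap4*, a metalloreductase, was at 1756 and 1863 against 289 and 217 (2.85), and *Socs3*, an inhibitor of STAT3 signalling, at 6118 and 6081 against 1093 and 1774 (2.13, but -0.29 with equal sums and -0.0032 with equal medians). In these 3 genes the *Efhd2*-deficient libraries were within 1.06 times of each other. The coagulation factor genes *F10* (608 and 419 against 50.8 and 90.8) and *F13a1* (347 and 878 against 44.7 and 138) were higher by 2.87 and 2.79 on the log2 scale. *Adora2b*, an adenosine receptor, was at 120.0 and 151 against 11.1 and 23.2 (2.99), and *Gpr84*, a receptor for medium-chain fatty acids, at 54.9 and 76.0 against 4.20 and 11.0 (3.05). *Pfkfb3*, a regulator of glycolysis, was at 1666 and 1049.6 against 159 and 352 (2.48), and *Slc7a11*, the cystine transporter, at 1635 and 753 against 194 and 336 (2.11, but -0.30 with equal sums and -0.015 with equal medians). The neighbours *Cd38* and *Bst1*, which encode NAD-consuming ectoenzymes, were at 9298 and 12959.5 against 2481 and 4096 and at 358 and 451 against 59.4 and 117.

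The 11 lower genes did not form 1 pathway on the lists. Only 2 lists held more than 1 of them, and each of these lists joins 2 themes. The pairs below therefore follow how the lists were drawn up. Of 12 ERK target and immediate early genes, 2 were listed, both lower and called, and both remained lower with equal sums and equal medians. *Arc*, an immediate early gene, was at 382 and 82.2 normalized counts in libraries 65 and 71 and at 1890.1 and 1115 in libraries 67 and 68 (log2 difference -3.02, standard error 0.90, and -1.92 without library 71). *Etv4*, a transcription factor of the ETS family induced by ERK signalling, was at 53.9 and 13.4 against 304 and 131 (-2.84, standard error 0.89, and -1.87 without library 71). Both were lowest in library 71, by 4.65 and 4.02 times against library 65. *Egr1*, *Fos* and *Dusp6* of the same list were not listed.

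Of 12 PPAR target and xenobiotic metabolism genes, 2 were listed, *Cyp2c55* (above) and *Pdk4*, both lower, called, and lower on the other scales too. *Pdk4*, which restrains the entry of pyruvate into mitochondrial oxidation, was at 441 and 467 normalized counts against 879.9 and 4031 (log2 difference -2.05, standard error 0.88, adjusted p = 0.0483, limma). Without library 68 its log2 difference was -0.95, and without library 67 it was -3.15. That of *Cyp2c55* was -1.26 without library 68. For *Cyp2c55* and *Pdk4* the wildtype libraries were far apart, with library 68 above library 67, and the *Efhd2*-deficient libraries close together.

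*Nr0b2*, a nuclear receptor without a DNA-binding domain that represses bile acid synthesis genes in the liver, was at 1.02 and 2.05 normalized counts in libraries 65 and 71 against 18.8 and 49.7 in libraries 67 and 68 (log2 difference -3.67, standard error 0.81). *Defa24*, an alpha-defensin gene of Paneth cells, was listed at 0 in both *Efhd2*-deficient libraries and was at 40.1 and 3.52 in the wildtype libraries. *Gsdmc4*, a gene of the gasdermin C family, was at 631 and 543 against 6256 and 777 (-1.91, standard error 0.99, adjusted p = 0.0797, limma). It was the 1 lower gene that was not called, and its wildtype mean came mostly from library 67. The *Gsdmc* genes are close paralogs, so their counts are uncertain.

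The other 4 lower genes were on none of the lists. *Utp14b* was at 552 and 337 normalized counts against 1252 and 1828 (log2 difference -1.81), *Nacad* at 16.3 and 12.3 against 68.1 and 135 (-2.68), *9130230L23Rik* at 40.7 and 26.7 against 119 and 200.5 (-2.19) and *AI506816* at 83.4 and 49.3 against 189.7 and 988 (-2.74, and -1.55 without library 68). Both *Efhd2*-deficient libraries were below both wildtype libraries for each of these 4 genes, as for the 7 before.

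**Figure D3:**
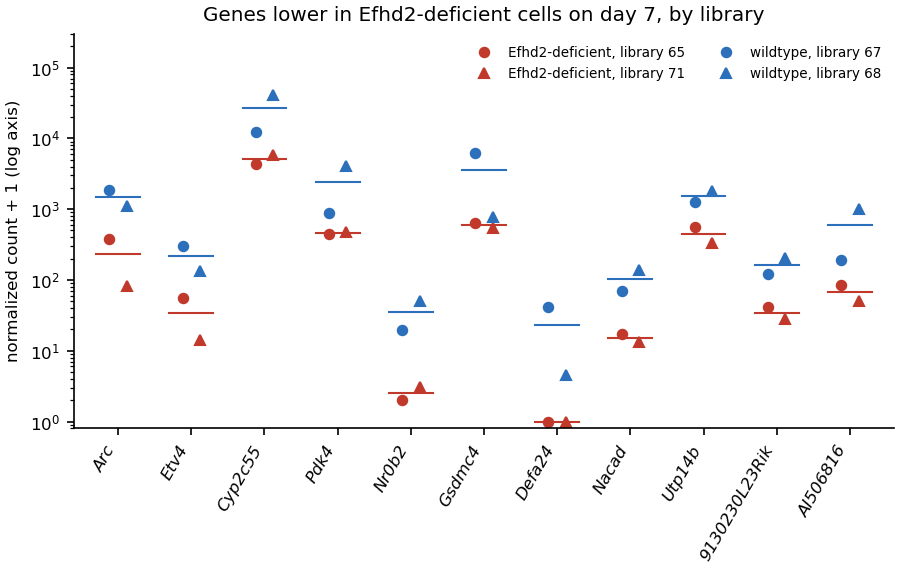
Normalized count + 1 (log axis) of the 11 genes that were lower in Efhd2-deficient IECs, in each of the 4 libraries (points) with the genotype mean (line). Efhd2-deficient points lie below wildtype points for every gene; the wildtype libraries are far apart for Gsdmc4, Pdk4, Cyp2c55, AI506816 and Defa24.

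The spread between the libraries of a genotype entered the choice of the genes through the adjusted p-value, whereas which of the 2 libraries was the higher did not. Among the 111 higher genes above 0 in both genotypes, library 71 was above library 65 in 76, with a median log2 difference of 0.37. In wildtype, library 68 was above library 67 in 92 of the 111, with a median of 0.89. On the same log2(normalized count + 1) scale, 17 of the 121 genes above 0 in both genotypes differed more than 4-fold between the *Efhd2*-deficient libraries. Of these, 13 were higher in library 71 and 4 in library 65, and only *Arc* was a lower gene. Between the wildtype libraries 3 genes differed so, *AI506816*, *Pdk4* and *Gsdmc4*, all of them lower genes. Higher genes were chosen for high *Efhd2*-deficient levels and lower genes for high wildtype levels. The counts of 17 and 3 therefore do not compare how uneven the genotypes are. With 1 library against 1 the differences between libraries have no test.

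By list, the median log2 difference of library 71 against library 65 ran from 4.01 for neutrophil granule protein genes and 1.38 for mature neutrophil markers through 0.70 for host defence genes to -0.10 for red blood cell markers, -0.47 for chemokine genes and -0.94 for cytokine genes. In wildtype the same lists lay between 0.88 and 1.28 for library 68 against library 67. The *Efhd2*-deficient libraries thus differed from each other by list, with neutrophil transcripts high in library 71 and cytokine transcripts high in library 65, whereas the medians of the wildtype libraries differed by about the same amount for each of these lists. The host defence median hides a split in wildtype, where 4 of the 7 genes were higher in library 68. For *Reg3b*, *Reg3g* and *Reg3d* the log2 differences of library 68 against library 67 were -0.013, -0.36 and -0.68.

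**Figure D4:**
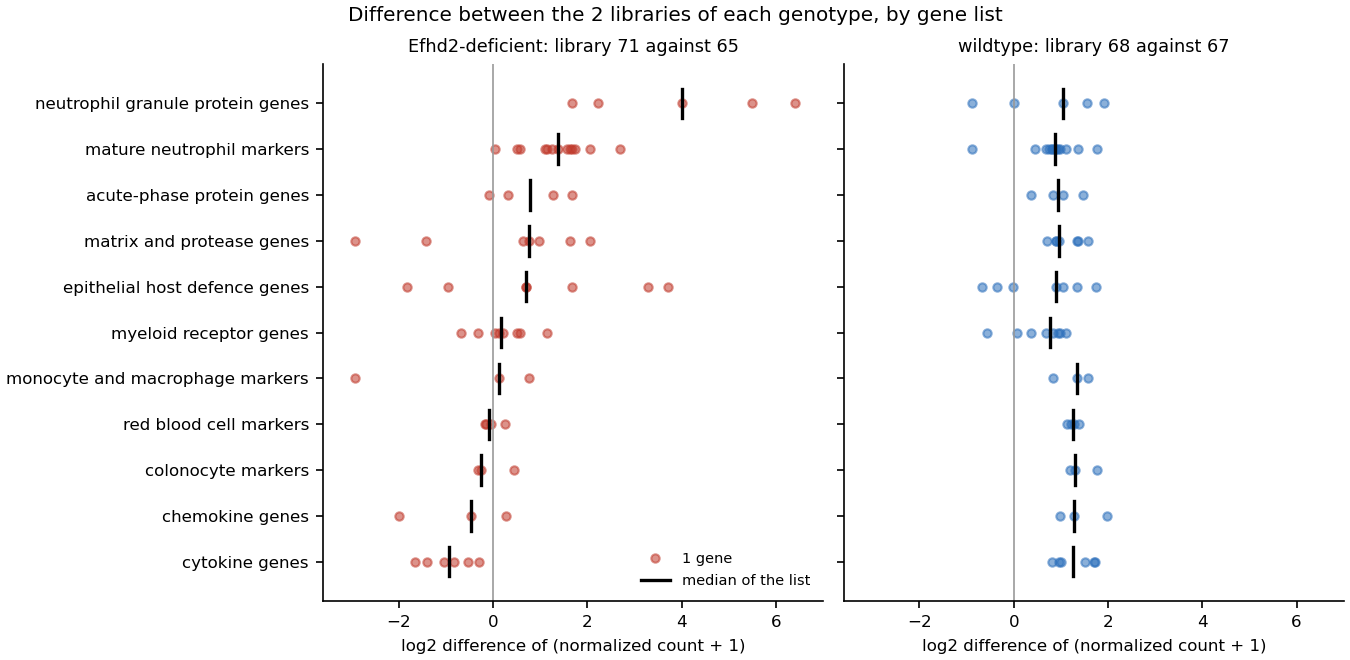
Log2 difference of (normalized count + 1) between library 71 and library 65 of Efhd2-deficient IECs (left) and between library 68 and library 67 of wildtype IECs (right), with 1 point per gene and the median of each list as a bar, for lists with at least 3 genes above 0 in both genotypes. The medians run from -0.94 to 4.01 on the left, and on the right they lie close together.

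The most uneven gene was *BC018473*, a noncoding gene at 1398 normalized counts in library 65, 12.4 in library 71, 26.9 in library 67 and 14.5 in library 68. Its log2 difference of 2.72 (standard error 1.62, adjusted p = 0.122, limma) rested on library 65, and without that library it was -0.64. Another such gene was *Zfp990*, which was at 144 in library 71, 0.0311 in library 65 and 0 in both wildtype libraries. Neither was called.

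The genes lay in part side by side in the genome. Within 500 kb of each other, 38 of the 128 genes formed 15 clusters, among them the Reg3, S100a8 and S100a9, globin, stefin and Fpr genes already described and the interleukin 17 pair. In all but 1 of the 15 the neighbours had the same direction, where 91.4% of all listed genes were higher. The exception was *Arc*, which was lower and lies 140882 bases from *Gml*, which was higher. Antisense overlap limits some values, since 31 of the genes overlap a gene on the opposite strand and the strand setting of the count is not known. Some genes overlap another on the same strand, such as *Utp14b* with *Acsl3* and *Fpr2* with *Fpr3*. Reads of such pairs may not be told apart with any strand setting.

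Of the 128 genes, 9 were also listed on day 0, which is 7.03% of the day 7 genes and 2.91% of the 309 genes of day 0. For 7 of the 9 the difference between the genotypes had the opposite sign on the day without DSS, and for 2 it had the same sign. On day 7, 91.4% of the listed genes were higher in *Efhd2*-deficient IECs, whereas most genes listed on day 0 were lower. Opposite signs are therefore frequent from these shares alone, and the count of 7 was not tested against them. Each day was normalized on its own and the libraries of the days are different, so levels are not compared between days, and the difference between the days was not tested.

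*Nos2* was at 38.5 and 46.4 normalized counts in *Efhd2*-deficient libraries 51 and 53 of day 0 and at 145 and 220.0 in wildtype libraries 50 and 52, below wildtype where it was above wildtype on day 7. *Saa3* was at 167 and 92.4 against 347 and 339.8 on day 0, and *Fcer1g* at 28.4 and 61.5 against 191 and 149. *Spp1* was at 1.01 and 0 against 9.80 and 8.71. These 4 inflammatory genes were thus lower than wildtype without DSS and higher on day 7.

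*Abca1*, an exporter of cholesterol, was at 29.4 and 33.4 normalized counts against 77.4 and 63.1 on day 0, and at 606 and 459 against 102 and 187 on day 7, where its log2 difference of 1.93 became -0.49 with equal sums and -0.20 with equal medians. *9130204K15Rik* was at 18.3 and 27.9 against 60.7 and 99.6 on day 0 and at 109.9 and 161 against 26.0 and 17.8 on day 7 (2.57). *Nr0b2* moved the other way, with 63.9 and 109.7 against 9.80 and 9.78 on day 0, above wildtype, and below it on day 7. *Alas2* was higher than wildtype on both days, with 44.6 and 68.8 against 25.5 and 14.3 on day 0. *Defa24* was listed at 0 in every *Efhd2*-deficient library of both days, and on day 0 it was at 0 and 86.9 in the wildtype libraries, so 1 wildtype library of that day was at 0 as well.

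**Figure D5:**
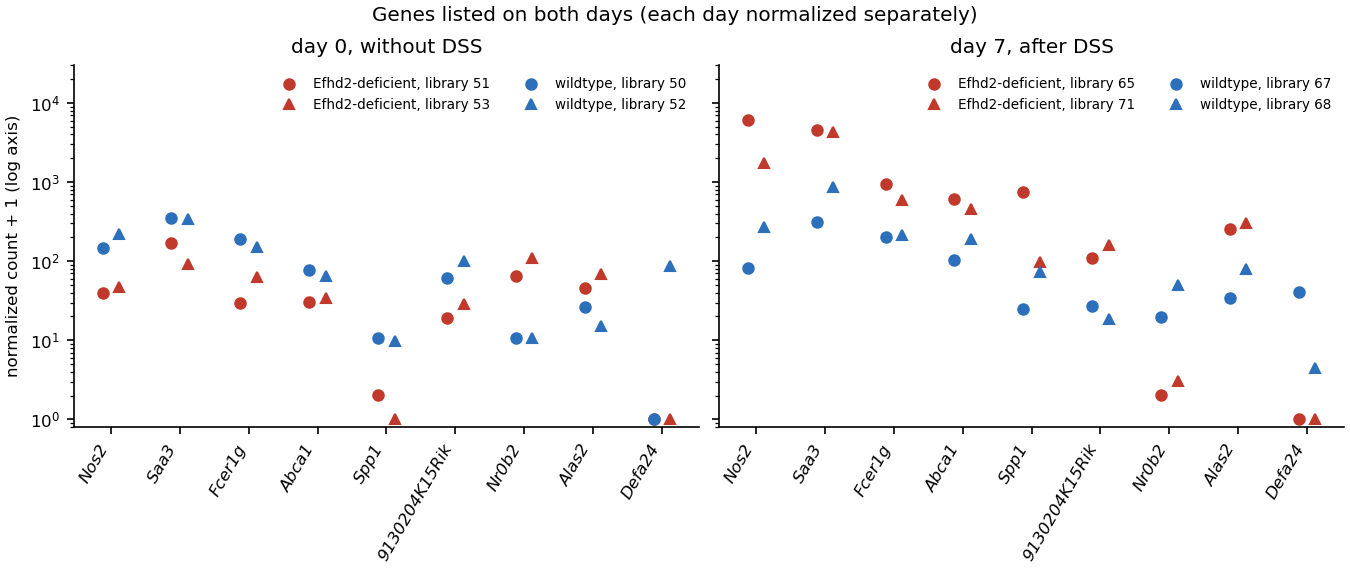
Normalized count + 1 (log axis) in each library of day 0 (left) and day 7 (right) for the 9 genes listed on both days, which were normalized separately. Nos2, Saa3, Fcer1g, Abca1, Spp1 and 9130204K15Rik lie below wildtype on day 0 and above it on day 7, and Nr0b2 does the reverse.

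The 18 higher genes that were not called lay at the lower end of the differences or varied within a genotype. *Plet1*, a membrane protein gene, had the smallest difference, with 3344 and 1628 normalized counts in libraries 65 and 71 against 811 and 838 in libraries 67 and 68. *Fut2*, which fucosylates epithelial glycans, was at 6721 and 10517 against 2260.4 and 3053 (adjusted p = 0.0564, limma), and *Gna14*, a G-protein subunit, at 1362 and 1339 against 397 and 529.7. These 3 genes were named after their values were seen. In each of them both *Efhd2*-deficient libraries were above both wildtype libraries.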

How the data were processed

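Colonic IECs of *Efhd2*-deficient and wildtype mice were profiled by RNA sequencing (TRIzol, NEBNext Ultra libraries). The submitters' processing notes name CASAVA 1.8, fastp, HISAT2 2.0.5, featureCounts 1.5.0-p3, DESeq2 1.20.0 and GRCm38 (mm10). The signal the authors deposited is a normalized count per gene and library; the scaling method is not given in the sources used here, whole reads could not be recovered, and the depth of the libraries is unknown because the table holds part of the genes. Values under 1e-06 were set to 0. The authors' own fold changes, p-values and group means, also in the table, were not used. The labels number replicates in another way than the columns number libraries.

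Genotypes were compared within day 7 by limma 3.58.1 (R 4.3.3; lmFit, eBayes) on log2(value + 1), a pseudocount that understates the differences of low genes, with Benjamini-Hochberg adjustment over the 128 genes. The design had assumed this unit. The procedure was tested on simulated data. Coordinates equalled those of GENCODE mouse release 21 for 126 of the 128 genes. Named genes are all listed genes of 28 lists, the 10 largest higher genes with a mean of at least 100, all lower genes, all genes listed on both days and the 5 genes most uneven between the *Efhd2*-deficient libraries in each direction; of the longer lists only a part is given by value. Genes and lists were chosen with earlier results of these data known. Alternatives were pseudocounts of 0.1 and 10, a mean of at least 50, equal sums or medians over the listed genes, no shared variance, a log2 difference above 2, each library left out and, added later, unadjusted p-values. Plots used Python 3.11.15, pandas 2.3.3, numpy 2.4.6 and matplotlib 3.10.9.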

Additional observations from a re-analysis of the deposited data

Results flagged for a closer look

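The 7 genes below were singled out because both libraries of *Efhd2*-deficient IECs lay on 1 side of both wildtype libraries on day 7 and on the other side on day 0. The difference between the days was not tested, since the days were normalized separately and were not fitted together. The genes had been selected on both contrasts. Most listed genes were higher on day 7 and lower on day 0, so opposite sides are frequent from that alone.

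Of the inflammatory genes, *Nos2* had a log2 difference (*Efhd2*-deficient minus wildtype) of -2.05 on day 0 and 4.45 on day 7, *Saa3* of -1.46 and 3.08, *Fcer1g* of -1.98 and 1.85, and *Spp1* of -2.85 and 2.67. *Abca1*, the cholesterol exporter, was at -1.13 and 1.93, and the noncoding gene *9130204K15Rik* at -1.74 and 2.57. *Nr0b2*, the nuclear receptor, was at 2.97 on day 0 and -3.67 on day 7. With equal sums over the genes listed on day 7, the day 7 differences of *Fcer1g* and *Abca1* became -0.56 and -0.49. That scaling lowers the day 7 genes by a similar amount, and day 0 was not rescaled. These values are therefore not set against those of day 0.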

How the results depend on the processing

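The counts of called genes, 99 higher and 10 lower, depended on the shared scale and on the variance shared between genes. Limma called 65 higher and 6 lower with a mean of at least 50 (105 genes tested), 5 higher and 7 lower with equal sums over the listed genes, 4 and 7 with equal medians, and 3 and 0 with no shared variance (39 and 3 at an unadjusted p under 0.05). With each library left out, 1 genotype holds 1 library, which leaves the fit little to estimate a spread from. Whether the calls rest on single libraries cannot be decided by such fits, and their counts are not given. Other settings stayed within 1.5 times of the reported counts: 91 and 8 with a pseudocount of 0.1, 107 and 9 with a pseudocount of 10, 88 and 9 above a log2 difference of 2, and 104 and 10 without adjustment.

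Of 71 genes whose log2 difference was recomputed, 70 kept their sign with every library left out, and *BC018473* ranged from -0.64 without library 65 to 6.07 without library 71. With equal sums the sign turned for 16: *Mal* (-0.50), *Hp* (-0.13), *Socs3* (-0.29), *Osm* (-0.71), *Cxcl2* (-0.42), *Ccl3* (-0.26), *Fn1* (-0.037), *Fcgr3* (-0.32), *Fcer1g* (-0.56), *Hmox1* (-0.025), *Abca1* (-0.49), *Hba-a1* (-0.27), *Alas2* (-0.0082), *Slc7a11* (-0.30), *Vim* (-0.75) and *Trem1* (-0.72). With equal medians it turned for 10: *Mal* (-0.21), *Socs3* (-0.0032), *Osm* (-0.42), *Cxcl2* (-0.13), *Fcgr3* (-0.035), *Fcer1g* (-0.28), *Abca1* (-0.20), *Slc7a11* (-0.015), *Vim* (-0.46) and *Trem1* (-0.43). Both scalings remove by construction what the mostly higher genes share. Of the list medians, that of red blood cell markers between libraries 68 and 67 was 1.14 and that of the cytokine genes 2.30 with a pseudocount of 10. With each library left out, the median log2 difference of colonocyte markers ranged from 1.27 to 2.57, that of myeloid receptor genes from 1.78 to 2.33, and that of host defence genes from 3.25 to 4.43.

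No paired analysis was possible because the columns number the libraries in another way than the labels number the replicates, and nothing ties a deficient to a wildtype library. The cause of these changes was not tested. The depth is unknown, so no counting error is given for low genes.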
